A study of Mus musculus with 2 samples.

Results

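Genes of the TNF receptor superfamily were compared between cultured mouse dermal cells in which β-catenin was knocked down and cells given a control small interfering RNA (siRNA). The group is a chosen set of 10 genes out of 19938 with a value, made up of 9 receptor genes (Tnfrsf1a, Tnfrsf1b, Tnfrsf10b, Tnfrsf11a, Tnfrsf11b, Tnfrsf12a, Tnfrsf19, Tnfrsf21 and Tnfrsf26) and the ligand gene Tnfsf9. The set was chosen by family and by the difference between these same 2 arrays, so the values below describe it and are not evidence for a shift of the family. Each of the 10 genes was found, with 1 probe set that carried no other gene symbol.

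Both groups were cells from the back skin of newborn C57BL/6 mice, with no genetic alteration named in the labels. They were grown for 24 h and then held for 48 h with either control siRNA or siRNAs against β-catenin, each at 10 nM. There was 1 array per group. The labels do not say how many pups or cultures were behind an array, and cells without siRNA were not analysed here. With 1 array per group no difference has a replicate check, so there is no p-value and no SD or standard error between replicates, and a statement that a gene was higher or lower refers to these 2 arrays alone.

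TNF superfamily ligands are mostly trimeric proteins on cell surfaces, some of them shed by proteases, and they act by clustering their receptors. Receptors with a death domain recruit adaptors such as Tradd and Fadd and can start caspase-driven death. Receptors without one bind TRAF adaptors and chiefly activate NF-kB and stress kinases, and decoy receptors bind a ligand without passing on a signal. In skin the superfamily is known for inflammation, for the death of damaged cells and, through ectodysplasin, for the formation of hair follicles.

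Values are log2 signals after robust multi-array average (RMA) processing, and a difference is the β-catenin siRNA value minus the control value. A gene passed the level filter if the higher of its 2 values reached 5.13, the median of all gene means, which 10197 genes did. The siRNA target was lower on the array labelled as its knockdown. Ctnnb1, which encodes β-catenin, measured 10.48 (log2) with control siRNA and 9.34 with β-catenin siRNA, or 45.2% of the control signal. The median difference of the genes past the filter was -0.02, and the robust SD of their differences (from the median absolute deviation) was 0.22. Such a robust SD is a spread across genes, given as a guide to scale, and does not measure the error between cultures.

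Fibroblast markers were present on both arrays. All 10 measured fibroblast markers passed the level filter, among them Col1a1, with log2 values of 12.77 and 12.71, and Vim, with 12.67 and 12.61. The list was not constant, since Lum (1.29), Dpt (1.13) and Pdgfra (0.75) had differences of at least 1.5-fold upward and Fap (-0.76) downward. All 6 measured T cell markers, all 3 B cell markers and 8 of 9 macrophage markers were under the filter on both arrays. Keratinocyte markers were a mixed case. Their summed signal on the linear scale was 612 with control siRNA and 989 with β-catenin siRNA, 6 of 8 markers were higher, and 4 of 8 were under the filter on both arrays. Melanocyte markers summed to 162 and 135, and pericyte and smooth muscle markers to 904 and 669. The part of these shifts in the results below was not tested, and in such bulk RNA a change in the share of a cell type and a change in RNA per cell cannot be told apart.

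Most of the 10 genes were lower after β-catenin siRNA. Over all 10, 7 were lower and 3 higher by any amount, where 52.8% and 45.8% of the genes past the filter were lower and higher, the median difference was -0.32, and the differences ran from -1.67 to 0.33. At least 1.5-fold lower (a difference of 0.585 or more) were 3 of them, Tnfsf9, Tnfrsf12a and Tnfrsf26, against 1.84% of the 10197 genes past the filter. None was at least 1.5-fold higher, against 2.76%. Since the genes were chosen with these differences known, nothing can be read from the contrast with those percentages. Of the 10, 9 passed the level filter, Tnfsf9 through its control value alone, while Tnfrsf19 was under it on both arrays.

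**Figure D1:**
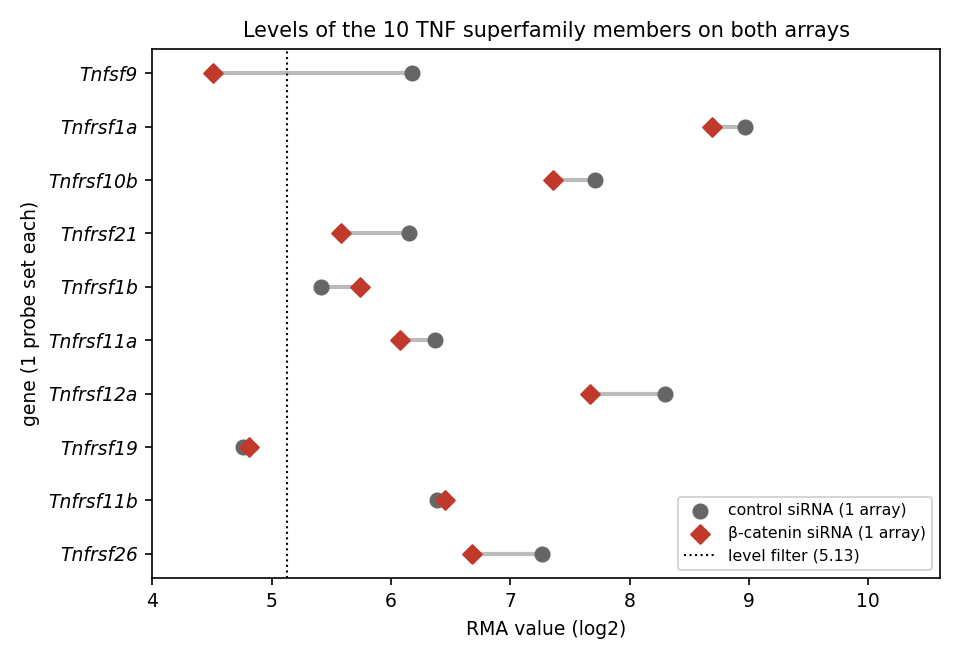
RMA values (log2, horizontal axis) of the 10 genes, with a grey circle for the control siRNA array, a red diamond for the β-catenin siRNA array and a dotted line at the level filter of 5.13; each point is 1 array. Tnfsf9 has the widest gap, from 6.18 to 4.51 across the filter, and Tnfrsf1b is drawn with the diamond to the right at 5.74 against 5.41.

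The ligand gene differed far more than any of the 9 receptor genes. Tnfsf9 encodes the ligand of 4-1BB, a co-stimulatory receptor of activated T cells. It measured 6.18 (log2) with control siRNA and 4.51 with β-catenin siRNA, a difference of -1.67. The signal was thus 3.17-fold lower, at 31.5% of the control signal, and it ranked 2 from the lowest among 10197 differences. Of the genes past the filter, 0.333% were at least 2-fold lower. Tnfsf9 was chosen with its difference known and passed the filter through its control value alone. Its rank and that share therefore only describe it. The robust SD of the difference was 0.26 among the 500 genes past the filter nearest to its mean over both arrays. For Tnfrsf19, with both values under the filter, the same measure was 0.39, so 0.26 may understate the scale for dim values. Because 4.51 lies under the level filter, the size of the fold rests on a dim signal on that array. Background left in such values can make folds smaller, and whether this fold is too small or too large was not tested.

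The receptor gene of this ligand lay under the level filter. Tnfrsf9, which encodes 4-1BB, had log2 values of 4.32 and 4.13, and the T cell markers were under the filter as well. The genes with values closest to those of Tnfsf9 over both arrays were Hhip, an antagonist of Hedgehog ligands (6.04 and 4.78, distance 0.30 in log2 units), Herc3, a ubiquitin ligase gene (6.09 and 4.90, distance 0.40), and Plxnc1, a semaphorin receptor gene (6.11 and 5.01, distance 0.50). With 2 arrays this likeness says only that the pairs of values were similar.

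All 3 death-domain receptor genes in the chosen set were lower, each by less than 1.5-fold. Among all genes past the filter, 52.8% were lower. These 3 were chosen with their differences known, so nothing can be read from their shared direction. Death-domain receptor genes outside the chosen set were not part of this count. Tnfrsf1a, the main TNF receptor of most cell types, had log2 values of 8.97 with control siRNA and 8.69 with β-catenin siRNA, a difference of -0.28. Tnfrsf10b, the death receptor for TRAIL in mice and a p53 target gene, had 7.71 and 7.36, a difference of -0.35. Tnfrsf21, or death receptor 6, had 6.15 and 5.58, a difference of -0.57 (1.48-fold lower). The Tnfrsf21 gap was the widest of the 3 and lay just short of the fold size, while the other 2 were well inside it. The robust SD among genes of similar level was 0.18 for Tnfrsf1a, 0.20 for Tnfrsf10b and 0.27 for Tnfrsf21.

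Receptor genes without a death domain went both ways. Tnfrsf12a encodes Fn14, the receptor of the cytokine TWEAK, and is known as a gene induced by growth factors and tissue injury. It measured 8.30 (log2) with control siRNA and 7.67 with β-catenin siRNA, a difference of -0.63. That is 1.55-fold lower, the widest gap among the 9 receptor genes, with a robust SD near its level of 0.20. The ligand of Fn14 has no value of its own, because the probe set for Tnfsf12 carries several gene symbols.

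The other receptor genes of this kind differed less. Tnfrsf11a, which encodes RANK, the receptor that drives osteoclast formation, had 6.37 and 6.08, a difference of -0.30. Tnfrsf1b, the TNF receptor that lacks a death domain, had 5.41 with control siRNA and 5.74 with β-catenin siRNA, a difference of 0.33 (1.25-fold higher) and the largest upward difference among the 9 receptors. Tnfrsf19, known as TROY and found in hair follicles, had 4.76 and 4.81, both under the level filter. The 2 TNF receptor genes therefore differed in opposite directions, neither by 1.5-fold.

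The secreted decoy and the least studied receptor differed from each other. Tnfrsf11b encodes osteoprotegerin, a soluble decoy that binds RANKL and, in osteoblasts, is known as a target of β-catenin. Its log2 values were 6.39 with control siRNA and 6.45 with β-catenin siRNA, a difference of 0.06. Tnfrsf26, a mouse gene of little-known function, had 7.27 and 6.68, a difference of -0.59 (1.51-fold lower), just past the fold size. Once the differences were centred on their median over all genes, that of Tnfrsf26 was -0.57 and no longer reached 1.5-fold.

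Upstream sequences show where letters bound by the DNA-binding partners of β-catenin occur. A RefSeq table of GRCm38.p6 held windows for 6 of the 10 genes, with none for Tnfsf9, Tnfrsf10b, Tnfrsf11b and Tnfrsf26. The 250 bases before each annotated start were searched on both strands for TCF/LEF (CTTTGAT, and the same with AA, TT or TA as its last bases), the NF-kB consensus, AP-1 (TGANTCA) and TEAD (GGAATG) letters, which do not overlap in these genes. Shown are Tnfrsf12a, the receptor gene with the largest difference, at chr17:23677450-23677699 (minus strand), and both windows with a TCF/LEF match, Tnfrsf1a at chr6:125349473-125349722 (plus strand) and one of the 2 windows of Tnfrsf19, at chr14:61037988-61038237 (minus strand). Each runs 5′ to 3′ and ends at the base before the start, and capitals mark the match.
Tnfrsf12a: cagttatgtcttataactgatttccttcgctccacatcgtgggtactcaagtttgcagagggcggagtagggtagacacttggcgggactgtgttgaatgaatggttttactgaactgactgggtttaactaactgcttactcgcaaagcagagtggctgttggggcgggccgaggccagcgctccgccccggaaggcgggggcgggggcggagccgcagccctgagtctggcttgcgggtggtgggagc
Tnfrsf1a: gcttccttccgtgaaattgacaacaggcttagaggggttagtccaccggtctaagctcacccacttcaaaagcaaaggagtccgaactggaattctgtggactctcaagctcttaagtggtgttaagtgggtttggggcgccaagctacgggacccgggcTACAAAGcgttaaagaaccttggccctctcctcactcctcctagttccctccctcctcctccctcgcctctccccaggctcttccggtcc
Tnfrsf19: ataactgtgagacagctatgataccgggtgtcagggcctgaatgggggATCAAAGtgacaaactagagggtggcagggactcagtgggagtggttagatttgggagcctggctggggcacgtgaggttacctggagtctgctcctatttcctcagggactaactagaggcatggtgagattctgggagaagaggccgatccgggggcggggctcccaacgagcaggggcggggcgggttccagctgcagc

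The TCF/LEF match lay 90 to 84 bases before the start of Tnfrsf1a, whose difference was -0.28, and 202 to 196 bases before that start of Tnfrsf19, whose difference was 0.05. Of 32851 windows in the table, 14.8% held such a match. Tnfrsf12a held none of the letters searched. TEAD letters were in the windows of Tnfrsf11a and Tnfrsf1b, against 12.6% of all windows, and neither NF-kB letters (0.98% of all windows) nor AP-1 letters (6.75%) were found in any of the 6 genes. A match describes the letters only, and the absence of one says nothing about a factor acting elsewhere.

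Neighbouring genes of the family were not alike in the size of their differences. Tnfrsf26 lies next to Tnfrsf22, which is followed by Tnfrsf23, and both encode decoy receptors of TRAIL (gene order from RefSeq). Tnfrsf22 had log2 values of 6.61 and 6.38 and Tnfrsf23 had 7.69 and 7.64, so their differences of -0.23 and -0.05 were smaller than the -0.59 of Tnfrsf26. Probes of such related genes can share signal, and probe sequences were not used here. Tnfsf9 lies next to Cd70, which is followed by Tnfsf14, and both encode ligands of lymphocyte receptors. Cd70 had 3.14 and 2.91 and Tnfsf14 had 3.25 and 2.82, all under the level filter. Tnfrsf8, the neighbour of Tnfrsf1b, was under it as well, at 4.06 and 3.96. Ltbr, the lymphotoxin β receptor gene near Tnfrsf1a, had 7.74 and 7.82, a difference of 0.08 where Tnfrsf1a had -0.28.

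Other receptor genes of the superfamily differed in both directions. Of 19 other receptor genes, 12 were lower, 6 higher and 1 equal. Of all genes past the filter, 52.8% were lower and 45.8% higher. The median difference of the 19 was -0.10, against -0.30 for the 9 chosen receptors. Those 9 were chosen with their differences known, so nothing can be read from that contrast. Past the level filter were 8 of the 19, and none of these reached 1.5-fold in either direction. Among them, Cd40, a receptor of antigen-presenting cells also found on fibroblasts, had 6.77 and 7.15, a difference of 0.38. Relt had 5.13 and 4.82, and Fas, the death receptor for Fas ligand, had 6.55 and 6.31.

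Few ligand genes had a signal past the filter. Of 17 other ligand genes 15 were measured, 8 were lower, 4 higher and 3 equal, and 2 passed the filter. Most of these directions thus come from values under it. Among all genes past the filter, 52.8% were lower and 45.8% higher. Eda encodes ectodysplasin, a signal in the formation of hair follicles. It had 6.15 with control siRNA and 5.51 with β-catenin siRNA, a difference of -0.64 (1.56-fold lower). Tnfsf11, which encodes RANKL, the ligand of Tnfrsf11a and Tnfrsf11b, had 5.30 and 5.53, a difference of 0.23. Tnf had 3.69 and 3.56 and Tnfsf10, which encodes TRAIL, had 2.73 on both arrays. The ligands of Tnfrsf1a, Tnfrsf1b and Tnfrsf10b were thus under the filter in these cells on both arrays.

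**Figure D2:**
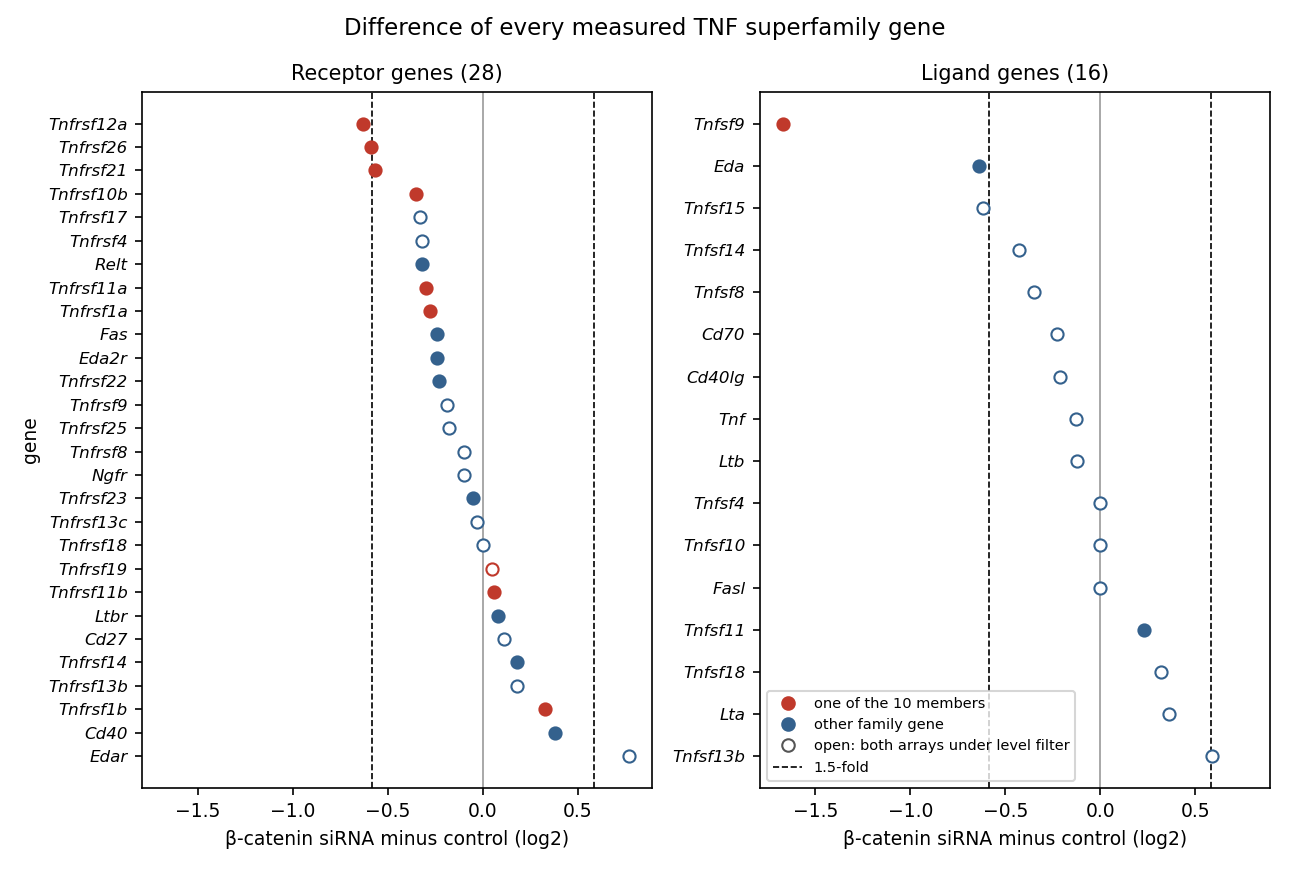
Difference (log2, β-catenin siRNA minus control, horizontal axis) of the 28 receptor and 16 ligand genes measured, 1 point per gene, red for the 10 chosen genes and blue for the others, open where both arrays were under the level filter; dashed lines mark 1.5-fold. Tnfsf9 stands alone at -1.67, and among filled points Tnfrsf12a, Tnfrsf26, Tnfsf9 and Eda lie past the left dashed line and none past the right one.

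Transcripts of the signalling proteins inside the cell were next. Of 25 measured adaptors, kinases and ubiquitin enzymes of the receptor complexes, 23 passed the filter and none reached 1.5-fold, where 95.4% of all genes past the filter were also within 1.5-fold, and the median difference over the 25 was -0.09. Tank, a TRAF-binding regulator, had log2 values of 7.69 and 8.24, a difference of 0.55. Tab1, a partner of the kinase TAK1, had 6.27 and 5.83, and Traf5, an adaptor, had 6.63 and 6.21. Traf2, the adaptor that many receptors without a death domain share, had 7.08 and 6.98.

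Death machinery and shedding genes past the filter lay within 1.5-fold, as did 95.4% of all genes past it. The median difference was -0.01 over 11 measured genes of the death machinery. Casp8, the caspase that death receptors activate, had 7.93 and 8.29, a difference of 0.36, while Apaf1 and Bak1, of the mitochondrial route, had -0.30 and -0.26. Over 7 shedding genes the median was 0.01. Adam17, the protease that releases TNF and several of its receptors, had 8.16 and 8.57. Timp1, a metalloproteinase inhibitor, had a difference of -0.43, and Frmd8, a partner of the iRhom proteins that carry Adam17, one of -0.30.

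Most genes for NF-kB subunits and inhibitors were higher. Of 10 measured NF-kB subunits and inhibitors, 8 were higher and 2 lower, with a median of 0.31. Among all genes past the filter, 45.8% were higher and 52.8% lower. At least 1.5-fold higher were 2 of the 9 past the filter, against 2.76% of all genes. These were Nfkbia, an inhibitor that NF-kB itself induces, with 7.62 with control siRNA and 8.66 with β-catenin siRNA (2.06-fold), and Nfkbie, with 4.62 and 5.30 (1.60-fold). Nfkbie passed the filter only through its higher value, and with both values required to pass the count was 1. The contrast with that percentage thus rests on few genes. This list too was chosen with earlier results of these data known, so nothing can be read from that contrast. Nfkbiz had 7.28 and 7.86, a difference of 0.57. Lower were Rela, with a difference of -0.36, and Nfkbib, with -0.17, which were named after their values were seen.

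NF-kB target genes held larger differences. Of 23 measured targets, 18 were higher and 5 lower, with a median of 0.22, where 45.8% of all genes past the filter were higher. At least 1.5-fold higher were 8 of the 18 past the filter, against 2.76% of all genes, and none was that much lower. Lcn2 and Saa3 passed the filter only through the array where they were higher, and with both values required to pass the count was 6. The list was chosen with earlier results of these data known, so nothing can be read from the contrast with those percentages. Cxcl5, a neutrophil chemoattractant, had 7.05 and 9.57 (5.76-fold), and Ccl2, a monocyte chemoattractant, had 7.95 and 10.21 (4.77-fold). Lcn2, an iron-binding acute phase protein, had 4.73 and 6.17, a difference of 1.44 from a control value under the filter. The list was not all one way, since Ptgs2 had a difference of -0.39, Bcl2l1 -0.31 and Ier3 -0.27, which were named after their values were seen. Macrophages make many of these transcripts too, and their markers summed to 134 and 138 on the linear scale, with 8 of 9 under the filter on both arrays. The remaining marker, Lyz2, had 4.75 and 5.38 (1.55-fold higher), and the part of macrophages in these values was not tested.

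**Figure D3:**
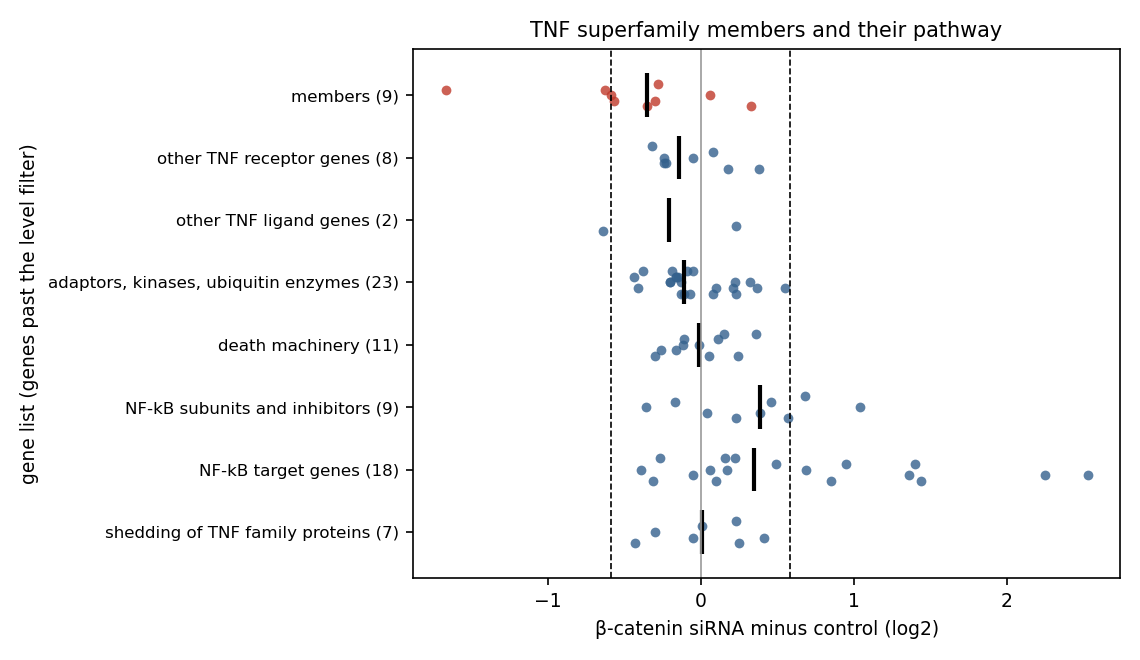
Difference (log2, β-catenin siRNA minus control, horizontal axis) of the genes past the level filter in each list, 1 point per gene with the number of genes in brackets, a black bar at their median and dashed lines at 1.5-fold; the vertical scatter within a list has no meaning. The bars of the NF-kB lists lie to the right of 0, at 0.39 and 0.35, and that of the chosen genes to the left, at -0.35. With both values required to pass the filter these medians are 0.31, 0.20 and -0.32. All lists were chosen with earlier results of these data known, so nothing can be read from the contrast.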

How the data were processed

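For each group 300 ng of total RNA was labelled and hybridised to 1 Affymetrix whole-transcript array, per the labels' protocols. The deposited values are on a log2 scale, judged from their range, and the submitters' processing notes name RMA and nothing else. Software, version and genome build: not given in the sources used here. The sorted columns differed by at most 0.123, so an overall change in RNA yield cannot be seen. The 28944 probe sets had 1 gene symbol (21789), several (1621) or none (5534) in the annotation of the platform. Current symbols were taken from a RefSeq table of GRCm38.p6 for 21698 of them. Per gene the probe set with the highest mean stood for it. Differences and fold sizes (1.5-fold and 2-fold) were computed with Python 3.11.15 and pandas 2.3.3. The fold rule was run on simulated data with changes of 2-fold and less spread between genes than in these arrays. That run does not measure the error of the rule here. The 10 members and all gene lists were chosen with earlier results of these data known. Named were the members, Ctnnb1, direct partners of members, the 3 genes past the filter with the largest absolute differences in each pathway list and the 3 genes nearest to Tnfsf9. Neighbouring family genes, cell type markers, the lower genes of the NF-kB lists and the genes of the closing observations were named outside this rule, after their values were seen. Alternatives were median and lowess centring (span 0.3), averaging the probe sets of each gene, leaving out the level filter, a filter at the 75th percentile of gene means, and both values past the filter. Precision is limited by 1 array per group.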

Additional observations from a re-analysis of the deposited data

How the results depend on the processing

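With 1 array per group no replicate could be left out. No paired analysis was possible because each group has a single array. A gene has no value under a filter it fails, so the alternatives gave 52 differences for the 10 genes, with no change of sign and 50 on their main side of 1.5-fold. Tnfsf9 was left out by the filter at the 75th percentile and by that on both values, each of which left 2 genes at least 1.5-fold lower, and was between -1.67 and -1.64 in the other settings. Tnfrsf26 fell short of 1.5-fold, at -0.57 with median centring and -0.58 with lowess centring. Each centring left 2 genes at least 1.5-fold lower in place of 3. With the filter at the 75th percentile, 4 of the 10 genes were left and their median was -0.47, against -0.35 over the 9 in the main setting. That filter gave 100 lower and 129 higher genes overall at 1.5-fold, and no filter gave 469 and 444, against 188 and 281. For the other receptor genes past the filter, the median turned from -0.14 to 0.02 with the 75th percentile filter, and without a filter 1 receptor gene was at least 1.5-fold higher. Among other ligand genes 1 was at least 1.5-fold lower in the main setting, 0 with the 75th percentile filter, and 2 without a filter, where 1 was higher. The median of the death machinery was -0.12 with the 75th percentile filter, against -0.01. For NF-kB targets the median past the filter was 0.35, against 0.22 with no filter, 0.19 with the 75th percentile filter and 0.20 with both values past the filter. The last 2 settings left 1 NF-kB subunit or inhibitor gene at least 1.5-fold higher in place of 2, and median and lowess centring gave 3. The filter settings change which genes are counted.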

Other observations

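Values of ectodysplasin genes are given here although they were chosen after they were seen. The ligand gene Eda had log2 values of 6.15 with control siRNA and 5.51 with β-catenin siRNA, while its receptor gene Edar, known from the epithelium of hair placodes, had 3.03 and 3.81, both under the level filter, so that no direction is read from it. Eda2r, which encodes a receptor for another form of ectodysplasin, had 8.11 and 7.87. Keratinocyte markers had differences from -0.55 (Krt15) to 1.02 (Krt5), with 0.00 for Krt10 and 0.01 for Trp63, and their part in the Edar values was not tested. The cytokine gene Tnfsf13b, known as BAFF, had 3.44 and 4.03, and Tnfsf15 had 4.90 and 4.28, also under the filter on both arrays.

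Some genes had the very same deposited value on both arrays. This held for 1168 of 19938 genes (5.86%), with a median value of 3.17, and for 140 of the 10197 genes past the level filter. In the TNF superfamily it held for 4 of 44 measured genes, Tnfrsf18, Tnfsf4, Fasl and Tnfsf10, none of them past the filter. For these genes a difference of 0.00 is a property of the deposited values, and the cause was not tested.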
